A study of Mus musculus with 9 samples.

Results

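The 5 genes that encode the mouse NF-κB subunits, Rela, Rel, Relb, Nfkb1 and Nfkb2, were followed in RAW264.7 macrophages. They were taken by gene name from a table of 54532 genes, and all 5 were found. They were also among the 11585 genes tested, which had at least 1 FPKM in at least 3 of the 9 libraries. FPKM is the number of reads on a gene scaled to the length of the gene in the table and to the size of the library. Each of the 5 genes was above 1 FPKM in all 9 libraries.

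NF-κB is a family of transcription factors that act as dimers and share a DNA-binding domain, the Rel homology domain. Rela, Rel and Relb carry transactivation domains, whereas Nfkb1 and Nfkb2 encode the precursors p105 and p100, which are shortened to the DNA-binding subunits p50 and p52. In resting macrophages most dimers are held in the cytoplasm by IκB proteins. Binding of LPS to Toll-like receptor 4 activates the IκB kinase complex, the IκB proteins are degraded, and dimers of the canonical arm, mainly of RelA, c-Rel and p50, enter the nucleus. In the noncanonical arm, p100 bound to RelB is processed to p52. Since most of this regulation acts on the proteins, the mRNA levels described here do not measure NF-κB activity.

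RAW264.7 is an established line of mouse macrophages, labelled here as wild type. The libraries fell into 3 groups of 3, which were untreated control cells, cells exposed to 1 μg/ml of LPS for 6 h, and cells exposed to 1 μg/ml of LPS for 6 h together with 400 μg/ml of G-CDs, carbon dots made from Glycyrrhiza. G-CDs are named in the titles of the last group and in the design of the series, while the treatment label of these samples gives LPS alone. No group received G-CDs without LPS, all libraries come from the same line, the labels give no time for the control cells, and no label says whether the 3 libraries of a group were separate cultures, so p-values measure the spread between these libraries, which may be technical.

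Reads on genes ranged from 14752400 to 17312255 per library, and the 5 genes had at least 192 reads in any library. All 8 macrophage markers examined were above 1 FPKM in every library, with sums of 2236 to 3167 FPKM in control, 1647 to 1725 FPKM in LPS and 1304 to 1930 FPKM in LPS + G-CDs libraries. The summed level of the 5 markers each of fibroblasts, T cells, B cells, epithelial cells and endothelial cells stayed at or below 1.25 FPKM per list. The values of LPS + G-CDs replicates 2 and 3 and of control replicate 3 depended on gene length. When the tested genes were split by length into 5 classes of about equal size, the median log2 level of the longest class (median 9132 bases) relative to the LPS libraries was -0.25 and -0.50 in LPS + G-CDs replicates 2 and 3 and -0.36 in control replicate 3, compared with 0.00 in LPS + G-CDs replicate 1 and -0.03 to 0.02 in the LPS libraries. In the shortest class (median 684 bases) these 3 libraries were at 0.20, 0.49 and 0.23.

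The length of a gene decides both its FPKM and its place on this trend. The table gives 12061 bases for Nfkb1, 7466 for Rel, 3885 for Relb, 3289 for Nfkb2 and 2716 for Rela. For 11000 of the 11585 tested genes, Nfkb1, Rel and Relb among them, this was the length of all annotated exons merged (GENCODE M21). For Nfkb1 these include retained introns, and its longest protein-coding transcript has 4117 bases, so that its FPKM is divided by 2.93 times that length. For Relb this transcript has 2209 bases and for Nfkb2 3846, while for Rel and Rela it has the length in the table. Levels were therefore compared between genes both as FPKM and per base of the longest coding transcript, and the trend was removed with either length where it moves a result. For Nfkb1 and Relb the level per coding transcript is an upper limit, since reads on the other merged exons are counted with it. For Nfkb2 it may be too low, since the length in the table is shorter than this transcript.

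In the coordinates of the table, which belong to GRCm38 per the submitters' processing notes, Rela (ENSMUSG00000024927) lies on chromosome 19 from 5637483 to 5648130 on the plus strand and Nfkb2 (ENSMUSG00000025225) on the same chromosome from 46304737 to 46312090, also on the plus strand. Rel (ENSMUSG00000020275) lies on chromosome 11 from 23736847 to 23770970, Relb (ENSMUSG00000002983) on chromosome 7 from 19606217 to 19629438, and Nfkb1 (ENSMUSG00000028163) on chromosome 3 from 135584655 to 135691547, all on the minus strand. Of the 50-base words of the longest annotated transcript, none occurred in other genes for Rela and Relb, 0.121% for Rel, 1.27% for Nfkb1 and 18.5% for Nfkb2. The shared words of Nfkb2 belong to Psd and AC114539.1, which overlap the ends of its annotated gene on the opposite strand. The library protocol as described has no step that keeps the strand, so reads from shared stretches cannot be told apart. In the deposited coordinates, however, Nfkb2 ends at 46312090 and Psd begins at 46312087. The stretch shared with Psd thus lies almost wholly outside the gene as measured here. Psd reached at most 5.81 FPKM, whereas AC114539.1 was not analysed here.

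NF-κB dimers bind κB sites, the letters that the proteins of these genes recognize, so the promoters of the subunit genes in the reference are shown. RefSeq promoter windows of GRCm38.p6, from 250 bases before to 50 bases after a transcription start, matched 3 of the 5 genes, Rel, Rela and Nfkb2, the last with 3 starts. Nfkb1 and Relb were not analysed here. The stretches below end before both the RefSeq start and the start of the gene in the table, are written in the direction of transcription, and have matches to the κB consensus on either strand in capitals. They cover chr11:23770971-23771219 on the minus strand for Rel, chr19:46304487-46304736 on the plus strand for the first start of Nfkb2, and chr19:5637291-5637482 on the plus strand for Rela.
Rel: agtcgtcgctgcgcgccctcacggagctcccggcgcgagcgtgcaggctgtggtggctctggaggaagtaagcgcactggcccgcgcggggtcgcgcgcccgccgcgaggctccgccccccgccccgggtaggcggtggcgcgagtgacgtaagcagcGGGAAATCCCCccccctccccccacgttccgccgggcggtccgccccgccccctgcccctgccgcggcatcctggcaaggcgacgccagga
Nfkb2: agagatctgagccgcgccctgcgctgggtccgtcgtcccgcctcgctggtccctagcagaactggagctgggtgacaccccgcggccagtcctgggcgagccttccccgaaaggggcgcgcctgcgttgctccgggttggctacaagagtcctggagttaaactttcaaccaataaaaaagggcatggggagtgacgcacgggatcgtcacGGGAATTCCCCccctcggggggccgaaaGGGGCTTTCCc
Rela: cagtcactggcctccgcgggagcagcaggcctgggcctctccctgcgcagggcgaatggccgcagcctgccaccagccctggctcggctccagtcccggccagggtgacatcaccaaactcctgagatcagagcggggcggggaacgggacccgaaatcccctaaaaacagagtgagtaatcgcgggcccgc

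Rel held a block of 3 overlapping matches on the 2 strands, which begins 92 bases before the start with GGGAAATCCC. Nfkb2 held a similar block that begins 39 bases before its first start with GGGAATTCCC, and a further match, GGGGCTTTCC, 11 bases before it. The window of the middle Nfkb2 start held GGGACATTCC 236 bases before that start, on the opposite strand, and GGGACTTTCC 11 bases after it, and the latter also lies in the window of the last start, 225 bases before it. No match to the consensus was found in the window of Rela. Of 32851 RefSeq promoter windows of the same length, 4.51% held a match to the κB consensus, and 50.8% held the looser pattern GGGNNNNNCC on either strand, which contains every consensus match and which all 3 genes held. The core of the AP-1 site, TGANTCA, was found in 1 of the 5 windows, that of the middle Nfkb2 start, compared with 7.81% of all windows, and the core of the antioxidant response element, TGACNNNGC, in 0 of the 5, compared with 12.4%. A match describes the letters only, no binding was measured, and no relation of these matches to the changes below was tested.

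Measured as FPKM, the mRNA of all 5 subunit genes was higher with LPS, and by very different amounts. Nfkb1, Nfkb2 and Rel rose about as much as each other, to between 5.78 and 6.77 times the control mean, whereas Relb rose to 2.17 times and Rela to 1.40 times. As FPKM, the 3 LPS libraries lay above the 3 control libraries for each of the 5 genes. For Rela this rests on the library sizes behind FPKM. Control replicate 3 held 1259 Rela reads of 15914849 on genes, a slightly higher share than the 1167 of 14872213 in LPS replicate 1. In bulk libraries, a change in how many cells express a gene and a change in its RNA per cell cannot be told apart.

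Rela encodes RelA (p65), the transactivating subunit of the main canonical dimer. It was measured at 17.9, 23.5 and 26.0 FPKM in the control libraries, at 31.1, 31.5 and 31.7 FPKM in the LPS libraries, and at 28.3, 31.5 and 32.0 FPKM in the LPS + G-CDs libraries. The LPS libraries were close together and above all controls, and the LPS + G-CDs libraries overlapped them.

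Rel encodes c-Rel, a transactivating subunit known for its part in cytokine expression by lymphocytes and macrophages. Its level was 7.30, 7.24 and 5.29 FPKM in control cells, 44.3, 47.1 and 42.7 FPKM with LPS, and 38.9, 24.2 and 17.0 FPKM with LPS + G-CDs. All 3 LPS + G-CDs libraries were below all LPS libraries, and they differed among themselves more than the libraries of any other group.

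Relb encodes RelB, the partner of p52 in the noncanonical arm. It had the lowest FPKM of the 5 genes in every group, at 3.05, 2.90 and 3.54 FPKM in control cells, 7.34, 5.61 and 7.65 FPKM with LPS, and 5.75, 7.50 and 11.5 FPKM with LPS + G-CDs. Both treated groups were above the control libraries and overlapped each other, with LPS + G-CDs replicate 3 above every other library.

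Nfkb1, the gene of p105 and p50, was at 18.3, 15.04 and 12.2 FPKM in control cells. It reached 96.3, 91.4 and 94.1 FPKM with LPS and 77.5, 67.8 and 57.0 FPKM with LPS + G-CDs. The 3 groups did not overlap, with LPS + G-CDs between the others.

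Nfkb2, the gene of p100 and p52, was at 19.4, 15.4 and 15.8 FPKM in control cells, at 104.1, 90.2 and 97.8 FPKM with LPS, and at 76.0, 73.0 and 80.4 FPKM with LPS + G-CDs. Its groups were likewise separate and in the same order, and its LPS + G-CDs libraries were closer together than those of Nfkb1 and Rel.

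**Figure D1:**
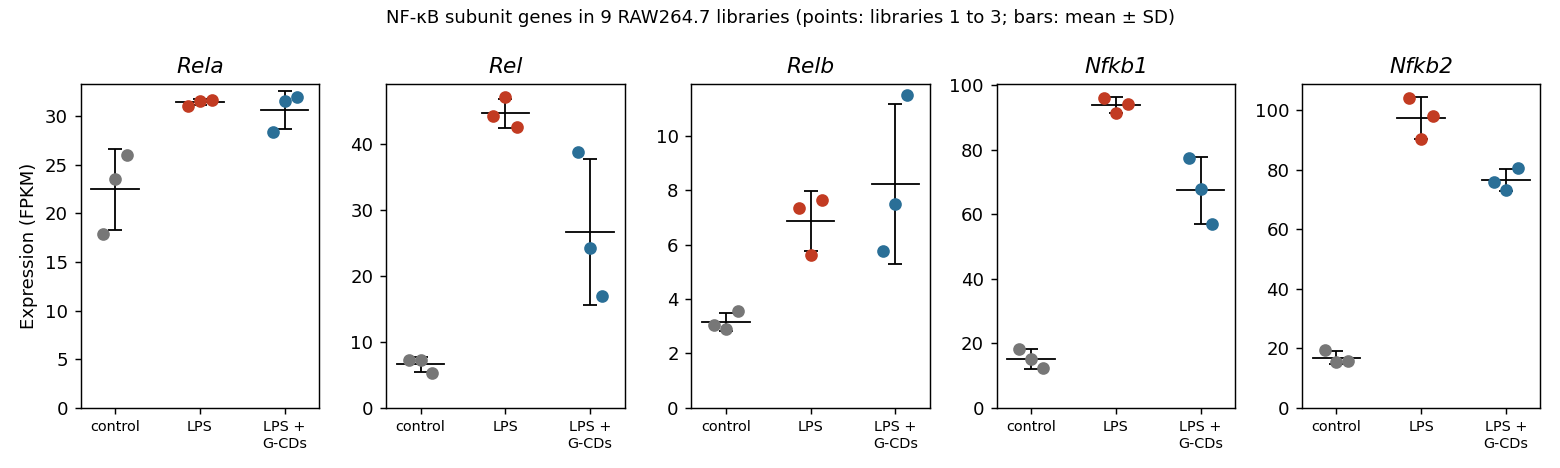
Level in FPKM (vertical axes, each from 0) of the 5 NF-κB subunit genes in the 3 libraries of each group (points, replicates 1 to 3 from left to right), with the group mean and SD as lines. Nfkb1, Nfkb2 and Rel are separate in the 3 groups, and the LPS + G-CDs libraries of Rel spread from 17.0 to 38.9 FPKM.

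Between LPS-treated and control cells, all 5 subunit genes passed the test with a rise (limma on log2(FPKM + 1), Benjamini-Hochberg adjusted p under 0.05), compared with 15.8% of the tested genes that rose. As FPKM, their 5 of 5 rises without overlap between the groups stand beside 27.4% of the tested genes. The median log2 fold change of the 5 genes was 2.47, and that of all tested genes was 0.02. Rel rose from 6.61 ± 1.14 to 44.7 ± 2.24 FPKM (SD, n = 3), with a log2 fold change of 2.60 (95% interval 2.01 to 3.18, limma adjusted p = 9.2e-05). Nfkb1 rose from 15.2 ± 3.04 to 93.9 ± 2.43 FPKM, with a log2 fold change of 2.57 (2.19 to 2.95, limma adjusted p = 6.3e-06), and Nfkb2 from 16.9 ± 2.18 to 97.4 ± 6.99 FPKM, with 2.47 (2.18 to 2.75, limma adjusted p = 1.4e-06). The intervals of these 3 genes overlap broadly.

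Relb rose from 3.16 ± 0.335 to 6.87 ± 1.10 FPKM (SD, n = 3), with a log2 fold change of 0.91 (95% interval 0.42 to 1.40, limma adjusted p = 0.012), a value that the log2(FPKM + 1) scale understates for a gene at this level. Rela rose from 22.5 ± 4.16 to 31.4 ± 0.310 FPKM, with 0.48 (0.16 to 0.81, limma adjusted p = 0.032). The intervals of Rela and Relb lie below those of Rel, Nfkb1 and Nfkb2. The rises of Rel, Nfkb1 and Nfkb2 were called in each of the 25 alternative analyses. Relb lost its call without LPS replicate 3 (0.84, limma adjusted p = 0.051). Rela kept its call in 18 of the 25 and lost it when libraries were rescaled to a common sum as TPM (0.22, limma adjusted p = 0.28), with quantile normalization (0.36, limma adjusted p = 0.082), and on leaving out control replicate 2, LPS + G-CDs replicate 2 or any 1 of the LPS libraries, where its log2 fold change was 0.48 to 0.52 and the limma adjusted p 0.053 to 0.096. TPM moved the median log2 fold change of all tested genes to -0.21 and the split of calls from 1827 higher and 1803 lower to 1015 higher and 3106 lower, and 4 of the 5 subunit genes remained called as higher.

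Within the family the order of the levels depended on the length used. As FPKM, Rela was the highest in control cells (22.5 FPKM), followed by Nfkb2 and Nfkb1, with overlapping libraries between these neighbours, and then by Rel and Relb, which were separate from their neighbours. Per base of the longest coding transcript, on the scale of FPKM, Nfkb1 was the highest in control cells (44.4 ± 8.91), followed by Rela (22.5 ± 4.16) and Nfkb2 (14.4 ± 1.87), each without overlap. The Nfkb1 values on this scale, here and below, are upper limits. Rel (6.61 ± 1.14) and Relb (5.56 ± 0.590) came last on this scale and overlapped.

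In LPS-treated cells Nfkb2 (97.4 FPKM) and Nfkb1 (93.9 FPKM) came first as FPKM and overlapped each other, followed by Rel, Rela and Relb without overlap. Per base of the coding transcript Nfkb1 (275 ± 7.11) was above Nfkb2 (83.3 ± 5.97), and the order of the others was Rel, Rela and Relb here too, all without overlap. Rela was thus above Rel in control cells and below it in LPS-treated cells on either scale, for which the lengths of these genes are the same. In LPS + G-CDs cells Nfkb2 (76.5 FPKM) and Nfkb1 (67.4 FPKM) overlapped at the top as FPKM, and per base of the coding transcript Nfkb1 (198 ± 30.02) was above Nfkb2 (65.4 ± 3.19). Rela (30.6 FPKM) and Rel (26.7 FPKM) overlapped in these cells, and Relb was last (8.25 FPKM, or 14.5 ± 5.17 per base of the coding transcript, where it overlapped Rel).

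The summed level of the 5 genes was 64.3 ± 1.51 FPKM in control cells, 274 ± 8.63 FPKM with LPS and 209 ± 14.98 FPKM with LPS + G-CDs (SD, n = 3). Rela made up 35.1% ± 7.24 of this sum in control cells, 11.5% ± 0.446 with LPS and 14.7% ± 1.93 with LPS + G-CDs. Over the same groups Nfkb1 made up 23.5% ± 4.17, 34.2% ± 0.213 and 32.1% ± 2.89, and Nfkb2 26.2% ± 2.83, 35.5% ± 1.45 and 36.7% ± 3.62. Rel took 10.3% ± 1.61, 16.3% ± 1.22 and 12.5% ± 4.32 of the sum, and Relb 4.93% ± 0.609, 2.50% ± 0.350 and 4.01% ± 1.66.

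Per base of the coding transcript, Nfkb1 alone made up 47.2% ± 6.01 of the summed level in control cells, 61.6% ± 0.200 with LPS and 58.8% ± 3.56 with LPS + G-CDs, close to its share of the reads of the 5 genes (50.3%, 59.7% and 58.9%). These shares carry the limit given above for the Nfkb1 level, since both include reads outside its coding transcript. Rela made up 24.3% ± 6.15, 7.04% ± 0.255 and 9.24% ± 1.43 on this scale, and 17.2%, 4.50% and 6.13% of the reads. The Rela share was lower in both treated groups than in control cells by each of the 3 measures, while its size in control cells depended on the measure.

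The genes of the noncanonical pair, Nfkb2 and Relb, together made up 34.0%, 28.5% and 30.8% of the subunit FPKM in the control libraries, 39.4%, 36.0% and 38.5% in the LPS libraries and 36.1%, 39.5% and 46.4% in the LPS + G-CDs libraries. The share was 6.84 percentage points higher with LPS than in control cells, without overlap (two-sided exact permutation test, p = 0.10, the smallest that 3 against 3 libraries can give). The difference was -0.56 points counted in reads and -0.06 points per base of the coding transcript. Its size and direction thus depend on how length is weighted. The sign of the small value per coding transcript is not settled, since it divides Nfkb2 by 3846 bases while the length in the table is 3289. LPS + G-CDs and LPS differed by 2.70 points, with overlapping libraries (exact permutation p = 0.40), by 2.82 points per base of the coding transcript, and by -0.19 points without LPS + G-CDs replicate 3 and -1.80 points with the length trend removed.

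**Figure D2:**
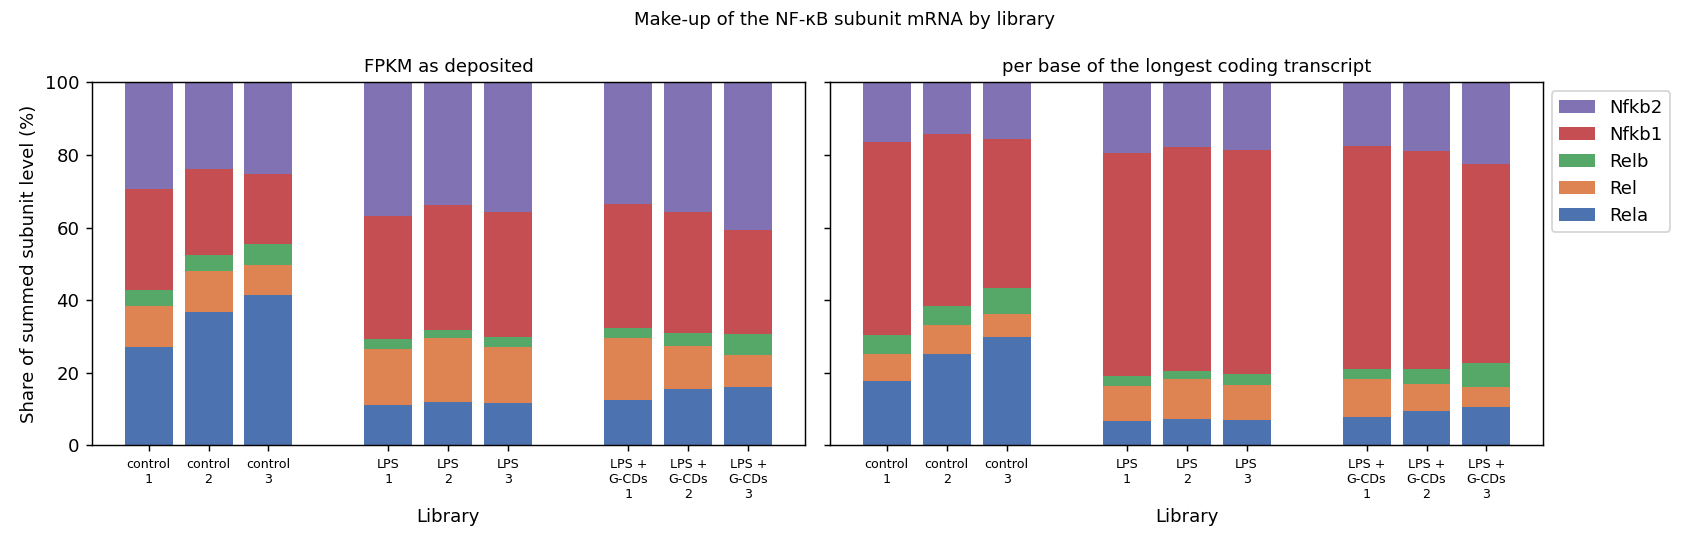
Share of each subunit gene in the summed level of the 5 genes (vertical axes, percent) in each of the 9 libraries (bars), as deposited FPKM on the left and per base of the longest coding transcript on the right. The Rela share is 27.2 to 41.4% of the FPKM in the control libraries and 11.0 to 16.2% in the treated ones, and Nfkb1 takes 41.2 to 61.8% of every bar on the right.

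With G-CDs added to LPS, none of the 5 subunit genes passed the test against LPS alone (0 of 5 at a limma adjusted p under 0.05, compared with 0.492% of the tested genes). By the study's own thresholds, p under 0.01 and a change over 1.5-fold, the count was also 0 of 5, compared with 2.49%, and voom on the recovered reads called 0 of 5. Nfkb1, Nfkb2 and Rel had an unadjusted p under 0.05 in the lower direction, compared with 8.04% of the tested genes, and their LPS + G-CDs libraries all lay below the LPS libraries, compared with 15.0% of the tested genes. The median log2 fold change of the 5 genes was -0.34, and that of all tested genes was 0.02.

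Rel had the lowest level relative to LPS, 59.8% of the LPS mean, at 26.7 ± 11.1 against 44.7 ± 2.24 FPKM (SD, n = 3). Its log2 fold change was -0.80 (95% interval -1.38 to -0.21, limma adjusted p = 0.27). Nfkb1 was at 71.8% of the LPS mean, with 67.4 ± 10.2 FPKM and a log2 fold change of -0.48 (-0.86 to -0.10, limma adjusted p = 0.28). Nfkb2 was at 78.5%, with 76.5 ± 3.73 FPKM and -0.34 (-0.63 to -0.06, limma adjusted p = 0.30). These 3 intervals lie below 0, and the values did not pass the adjustment over all genes.

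Rela and Relb did not share this position. Rela was at 97.4% of the LPS mean (30.6 ± 1.98 FPKM), with a log2 fold change of -0.04 and an interval from -0.36 to 0.29 (limma adjusted p = 0.88). Relb was at 120.1% (8.25 ± 2.94 FPKM), with 0.20 and an interval from -0.30 to 0.69 (limma adjusted p = 0.59). Both intervals span 0, and their width leaves room for changes in either direction.

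Expressed as the part of the rise from the control mean to the LPS mean that a library still showed, the 3 LPS + G-CDs libraries kept 73.4%, 69.8% and 78.9% for Nfkb2 in the order of their replicate numbers. The same libraries kept 79.1%, 66.8% and 53.1% for Nfkb1 and 84.7%, 46.3% and 27.4% for Rel. For Rela they showed 65.5%, 101.2% and 106.1%, and for Relb 69.9%, 117.1% and 224.8%. The libraries thus agreed for Nfkb2 and diverged for the others, with replicate 3 the lowest for Nfkb1 and Rel and the highest for Rela and Relb.

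**Figure D3:**
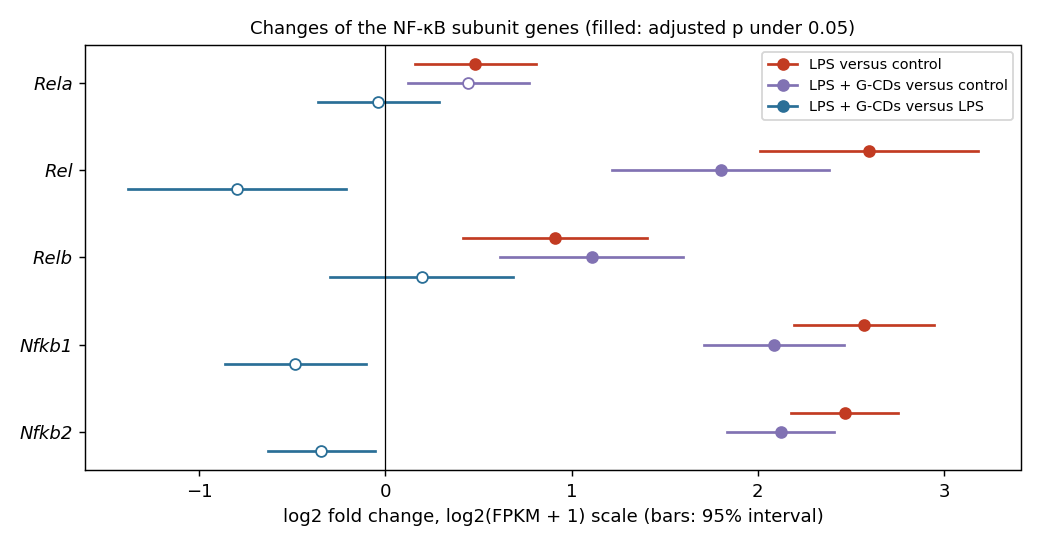
Log2 fold change (horizontal axis, on the log2(FPKM + 1) scale) of each subunit gene with its 95% interval in the 3 comparisons. Filled points passed an adjusted p of 0.05, which all 5 genes did for LPS versus control and 0 of 5 for LPS + G-CDs versus LPS.

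Of these 3 libraries, replicates 2 and 3 are those in which levels depended on gene length. On the log2 scale, Nfkb1 lay 0.27, 0.46 and 0.71 below the mean of the LPS libraries in LPS + G-CDs replicates 1, 2 and 3, and 0.29, 0.14 and 0.09 below it after the trend of all tested genes on the length in the table was removed from each library. With the coding transcript as the length it lay 0.28, 0.37 and 0.47 below. Rel was at -0.20, -0.86 and -1.34 as deposited, at -0.21, -0.70 and -1.003 with the table length and at -0.21, -0.49 and -0.64 with the transcript length. Nfkb2 was at -0.35, -0.41 and -0.27 as deposited, and at -0.35, -0.51 and -0.47 or -0.35, -0.34 and -0.09 after the same removals. Which gene came close to the LPS libraries thus depended on the length, with Nfkb1 in replicates 2 and 3 for the table length and Nfkb2 in replicate 3 for the transcript length, while Rel remained below them with both.

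For Rela and Relb the shift went the other way. Rela was at -0.14, 0.00 and 0.02 as deposited, at -0.14, -0.15 and -0.30 with the table length and at -0.14, -0.05 and -0.07 with the transcript length, so that its LPS + G-CDs libraries lay below the LPS libraries after either removal. Relb was at -0.21, 0.12 and 0.68 as deposited, and at -0.21, 0.07 and 0.59 or -0.21, 0.00 and 0.42 after, and its replicate 3 remained the highest library.

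In the fit with the trend on the table length removed, the log2 fold changes against LPS were -0.64 for Rel (limma adjusted p = 0.17), -0.44 for Nfkb2 (0.16), -0.20 for Rela (0.38), -0.17 for Nfkb1 (0.40) and 0.15 for Relb (0.67). Nfkb1, Nfkb2, Rel and Rela (4 of 5) then lay below LPS without overlap, compared with 15.9% of the tested genes. With the transcript length they were -0.45 for Rel (limma adjusted p = 0.10), -0.37 for Nfkb1 (0.17), -0.26 for Nfkb2 (0.31), -0.09 for Rela (0.70) and 0.07 for Relb (0.83), and 3 of 5 genes, without Nfkb2, lay below LPS, compared with 16.5%. Rel passed the test when LPS + G-CDs replicate 1 was left out, with a log2 fold change of -1.10 (limma adjusted p = 0.037), and with the trend also removed, with -0.85 (limma adjusted p = 0.02). Without LPS + G-CDs replicate 3 its log2 fold change was -0.53 (limma adjusted p = 0.60), and -0.45 with the trend also removed (0.38), so that its size rests on which of these libraries enter. It passed in 2 of the 25 alternatives, and the other 4 genes in 0 of the 25.

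**Figure D4:**
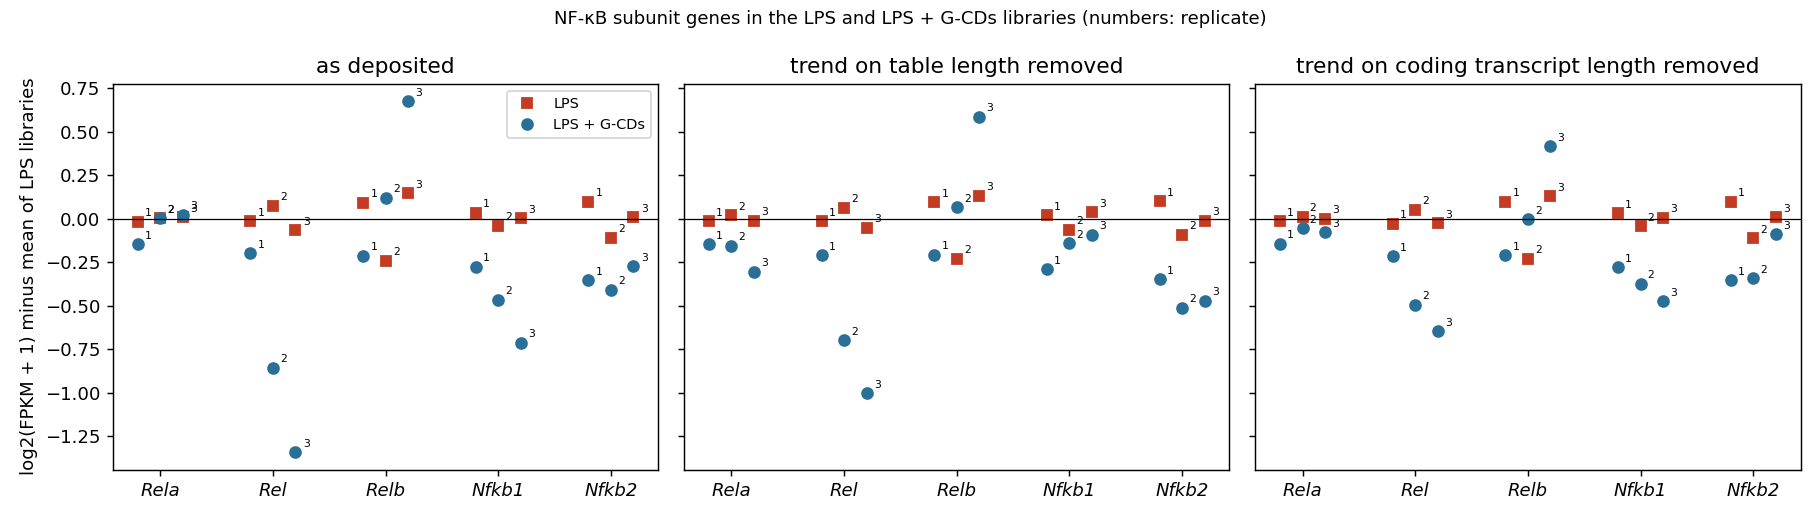
Level of each subunit gene on the log2(FPKM + 1) scale minus the mean of the LPS libraries (vertical axis), in the LPS libraries (squares) and LPS + G-CDs libraries (circles) with their replicate numbers, as deposited on the left, with the trend on the table length removed in the middle and with the trend on the coding transcript length removed on the right. Nfkb1 in LPS + G-CDs replicate 3 moves from -0.71 to -0.09 and -0.47, and Rel in the same library from -1.34 to -1.003 and -0.64.

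Against control cells, LPS + G-CDs cells had higher levels of Nfkb2, Nfkb1, Rel and Relb. This comparison shares its libraries with the others. The 4 genes passed the test, compared with 12.8% of the tested genes that rose. As FPKM, all 5 genes lay above the control libraries without overlap, compared with 17.7%. The log2 fold changes were 2.12 for Nfkb2 (limma adjusted p = 4.2e-06), 2.09 for Nfkb1 (2.7e-05), 1.80 for Rel (0.00098) and 1.11 for Relb (0.0055). Rela had 0.44 (95% interval 0.12 to 0.77, limma adjusted p = 0.051) and passed the threshold in 8 of the 25 alternatives, among them the model with a term for replicate number (the replicate block, limma adjusted p = 0.036) and those without control replicate 3 (0.026) and without LPS + G-CDs replicate 1 (0.05), but its log2 fold change was 0.02 with TPM (limma adjusted p = 0.92). TPM moved the split of calls from 1488 higher and 1439 lower to 755 higher and 3255 lower, and the median of all tested genes to -0.33.

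Genes that act on the subunits were grouped into lists, whose counts stand beside the shares of all tested genes. These were 15.8% called as higher and 15.6% as lower for LPS against control, 0.250% and 0.242% for LPS + G-CDs against LPS, and 12.8% and 12.4% for LPS + G-CDs against control. Of the IκB family and the brakes of the pathway, which bind the dimers or limit the signal, 7 of 8 genes (87.5%) were called as higher with LPS and 0 as lower, and the median log2 fold change was 2.25. The log2 fold changes of the list ranged from -0.36 to 5.25. The exception was Cyld, a deubiquitinase gene, with -0.36 (95% interval -0.69 to -0.04, limma adjusted p = 0.084, or 0.047 with the replicate block) and LPS libraries below the control libraries. Cyld was called as lower in 10 of its 24 alternatives, among them TPM (limma adjusted p = 0.045), the length trend removed (0.013) and the data without control replicate 3 (0.04). Nfkbiz, an atypical nuclear IκB, rose from 3.34 ± 0.582 to 163 ± 5.00 FPKM, with a log2 fold change of 5.25 (limma adjusted p = 7.6e-08). Tnfaip3, which encodes the deubiquitinase A20, rose from 2.79 ± 0.683 to 43.1 ± 1.40 FPKM, with 3.56 (1.3e-06). Nfkbia, the gene of IκBα, rose from 70.7 ± 6.30 to 644 ± 8.94 FPKM, with 3.17 (5.5e-07).

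With LPS + G-CDs against LPS, 1 of the 8 genes (12.5%) passed the test, which was Tnfaip3, at 19.9 ± 4.13 against 43.1 ± 1.40 FPKM, with a log2 fold change of -1.10 (limma adjusted p = 0.043). This call held in 13 of the 25 alternatives (limma adjusted p 0.0051 to 0.24) and was lost without any 1 LPS library, without control replicate 2, without LPS + G-CDs replicate 2 or 3, and with a pseudocount of 0.1, no filter, TPM, the 6 libraries alone or voom, and without LPS + G-CDs replicate 2 when the trend was also removed. Without LPS + G-CDs replicate 1 Nfkbiz was called as lower too (-0.97, limma adjusted p = 0.035), and with the trend on the transcript length removed so were Nfkbiz (-0.72, 0.027) and Bcl3 (-0.62, 0.043), another atypical IκB. Nfkbia was at 584 ± 52.3 FPKM, with -0.14 (limma adjusted p = 0.54). The log2 fold changes ranged from -1.10 to 0.14. The median of the list was -0.15, and -0.38 with the trend on the table length removed. Against control cells 7 of the 8 genes were called as higher, with 4.42 for Nfkbiz and 3.03 for Nfkbia.

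Of 13 genes of the IκB kinase complex and of the kinases and adaptors upstream of it, 4 were called as higher (30.8%) and 1 as lower with LPS, and the median log2 fold change was 0.30. With TPM 2 were called as higher and the median was 0.07, and the median was 0.13 without control replicate 3. Malt1 and Bcl10, partners in an adaptor complex that activates the IκB kinases, rose by 3.10 and 1.24 on the log2 scale (limma adjusted p = 1.9e-05 and 0.00026), and Tab1, a partner of the kinase TAK1, fell by 0.71 (0.004). The kinase genes themselves had log2 fold changes of 0.46 for Chuk (IKKα, limma adjusted p = 0.067, and 0.028 with the replicate block, where it passed the test) and 0.30 for Ikbkb (IKKβ, 0.14). Chuk passed in 9 of the 25 alternatives, and the direction of Ikbkb turned in 5, to -0.01 with the trend on the table length removed. With LPS + G-CDs against LPS, 0 of the 13 passed the test, with a median of -0.25, and -0.08 without LPS + G-CDs replicate 3. Chuk had -0.16 (limma adjusted p = 0.56) and Ikbkb -0.26 (0.35), which turned to 0.19 with the trend on the table length removed, 1 of 5 alternatives with the other sign. Malt1, named here after its values were seen, had the largest difference of the list, at 21.6, 13.9 and 9.92 FPKM against 40.2, 38.2 and 37.0 FPKM with LPS. Its log2 fold change was -1.35 (limma adjusted p = 0.066), and it was called as lower in 8 of the 25 alternatives, among them the table length trend removed (-1.05, 0.0047), the transcript length trend removed (-1.14, 0.0068) and the data without LPS + G-CDs replicate 1 (-1.63, 0.011). Against control cells 3 were called as higher (23.1%) and 2 as lower (15.4%), with 1.75 for Malt1, 1.28 for Bcl10, -0.56 for Tab1 and -0.49 for Irak1, the gene of a kinase downstream of Toll-like receptors, whose call held in 14 of the 25 alternatives. Chuk had 0.30 (limma adjusted p = 0.24) and Ikbkb 0.04 (0.86) in this comparison.

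In the noncanonical arm, 3 of 8 genes (37.5%) were called as higher and 1 as lower with LPS, and 2 as higher and 2 as lower with TPM. Cd40, a receptor of this arm and 1 of the 3, was at 0.431 ± 0.103 FPKM in control and 48.1 ± 3.04 FPKM in LPS-treated cells, with a log2 fold change of 5.10. It was the only gene of the list under 1 FPKM in all control libraries and passed the minimum through the treated libraries, so its value and its call are a description. Birc3, a ubiquitin ligase, rose by 2.46 (3.5e-06), and Tnfrsf11a, the receptor RANK, fell by 1.26 on the log2 scale (0.00049). Map3k14, the NIK kinase that starts p100 processing, had -0.21 (limma adjusted p = 0.15), and with LPS + G-CDs against LPS it had -0.07 (0.69), with the other sign in 5 of its 24 alternatives. The median of the list was 0.03 for LPS against control (-0.22 with TPM), -0.17 for LPS + G-CDs against LPS with 0 genes called (0.06 with the trend on the transcript length removed), and 0.25 for LPS + G-CDs against control with 3 higher and 1 lower (-0.16 with TPM). Against control cells Cd40 had 4.82, Birc3 2.08 and Tnfrsf11a -1.35, and Map3k14 -0.28 (limma adjusted p = 0.078). Birc2, also called as higher there (0.41, limma adjusted p = 0.047), lost its call with TPM, median of ratios, quantiles and voom. The same happened without control replicate 2 or 3 and without any LPS or LPS + G-CDs library.

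Of 12 nuclear cofactors, which modify chromatin or the subunits, 2 were called as higher (16.7%) and 1 as lower (8.33%) with LPS, shares near or below the 15.8% and 15.6% of all tested genes. The acetyltransferase gene Crebbp had a log2 fold change of 0.90 (limma adjusted p = 0.042), the deacetylase gene Hdac1 0.61 (0.016) and Pdlim2, which encodes a ubiquitin ligase of RelA, -0.88 (0.0039). Pdlim2 was called in each of the 25 alternatives, Hdac1 in 20 and Crebbp in 17, and with TPM 0 cofactors were called as higher and 2 as lower. With LPS + G-CDs against LPS 0 of the 12 were called, with a median of -0.04, and against control cells Hdac1 was called as higher (0.59) in 20 of the 25 alternatives too and Pdlim2 as lower (-0.72) in 22, with both lost with the 6 libraries alone and without LPS + G-CDs replicate 2, whether or not the length trend was removed, and Hdac1 also with TPM and quantile normalization. Against LPS, the unadjusted p was under 0.05 for 3 of 8 genes of the IκB family and brakes, 2 of 13 of the kinase list, 1 of 8 of the noncanonical arm, 1 of 12 cofactors and 12 of 24 target genes, compared with 15.2% of all tested genes. The middle 3 counts lie near or below that share and the other two above it, and voom on the reads called 0 genes of the kinase list, the noncanonical arm and the cofactors.

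Of 27 known target genes of NF-κB, 24 were tested, and Cxcl1, Il12b and Vcam1 did not reach the expression minimum. Among the tested genes, 15 were under 1 FPKM in all control libraries and so passed the minimum through the treated libraries, so the counts and medians that follow are a description of these genes, for which the minimum favours a rise with LPS. With LPS 23 genes were called as higher (95.8%, compared with 15.8% of all tested genes) and 0 as lower, with a median log2 fold change of 5.66. The log2(FPKM + 1) scale understates genes this low in control, and with voom on the recovered reads the median was 8.04. Csf3, the gene of granulocyte colony-stimulating factor, reached 1374 ± 37.5 FPKM with a log2 fold change of 10.29, and the chemokine gene Cxcl2 1217 ± 132 FPKM with 9.46.

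With LPS + G-CDs against LPS, 6 target genes were called as lower (25.0%, compared with 0.242% of all tested genes) and 0 as higher, with a median of -0.24 and log2 fold changes from -1.31 to 0.52, of which 8 were above 0. The limit set by the expression minimum holds here too. The share of all tested genes is not a like background, since most of those genes were not raised by LPS. Cxcl10, a chemokine gene, and Irf1, which encodes an interferon regulatory factor, both named after their values were seen, lay above LPS without overlap, with 0.52 (limma adjusted p = 0.25) and 0.45 (0.26). Ccl22, a chemokine gene, was at 49.1 ± 7.17 against 123 ± 2.21 FPKM, with a log2 fold change of -1.31 (limma adjusted p = 0.0036). Its call held in all 25 alternatives. Lta, the gene of lymphotoxin alpha, was at 5.82 ± 0.813 against 13.6 ± 0.830 FPKM, with -1.10 (0.0068), a call that held in 21. Ccl22 and Lta were at 0.223 and 0.0270 FPKM in control cells and passed the minimum through the treated libraries, so their values and calls are a description. The count of 6 became 9 with the trend on the table length removed, 10 with the transcript length and 4 with TPM, and it fell to 1 on leaving out LPS replicate 1, LPS replicate 2 or LPS + G-CDs replicate 2, to 2 on leaving out LPS replicate 3, and to 3 on leaving out control replicate 2 or LPS + G-CDs replicate 3. Against control cells all 24 tested genes were called as higher, with 9.88 for Csf3 and 9.70 for Cxcl2.

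The medians of the lists against LPS moved with the processing. Over the 25 alternatives the median ranged from -0.51 to -0.20 for the 5 subunit genes, from -0.45 to -0.10 for the IκB family and brakes, and from -0.46 to -0.17 for the target genes. It ranged from -0.36 to -0.02 for the kinase list and from -0.17 to -0.02 for the cofactors, and from -0.31 to 0.06 for the noncanonical arm, where the sign turned. The lowest values of the subunits, the kinase list, the noncanonical arm and the cofactors were those with TPM. Cofactors were at -0.12 without LPS + G-CDs replicate 2 and -0.09 without replicate 1.

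**Figure D5:**
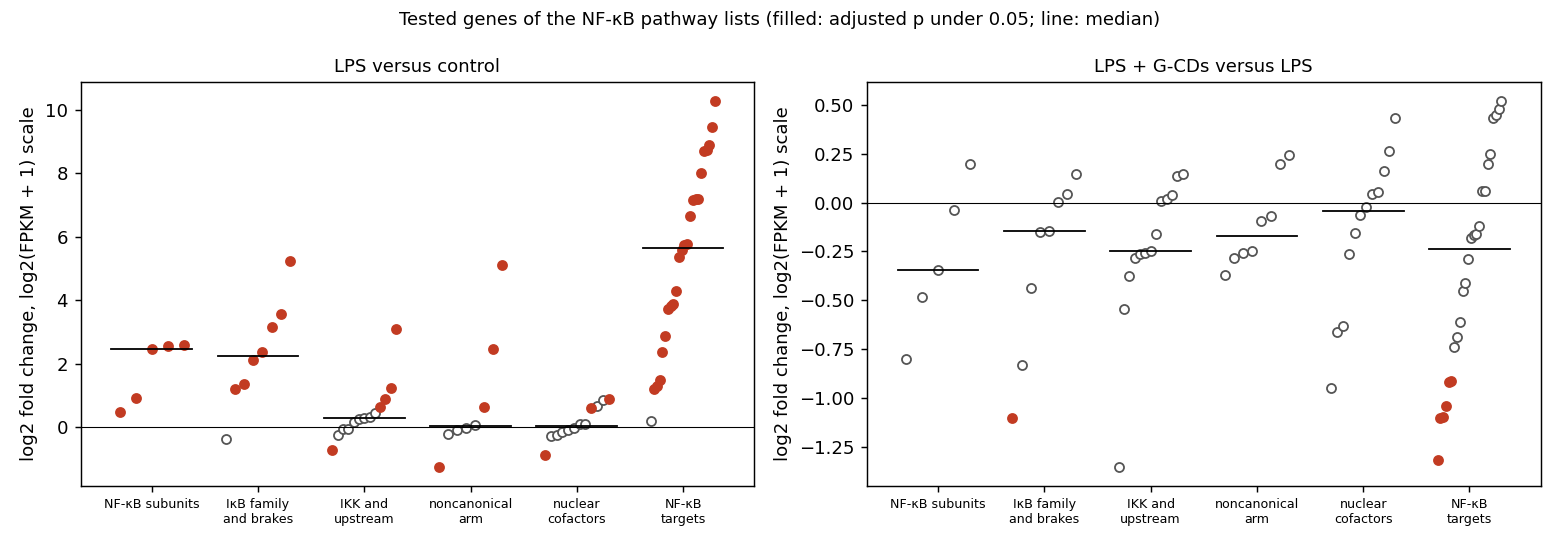
Log2 fold change (vertical axes, on the log2(FPKM + 1) scale and of different range) of the tested genes of the subunit family and the 5 pathway lists, for LPS versus control on the left and LPS + G-CDs versus LPS on the right, with filled points for an adjusted p under 0.05 and lines for list medians. The target genes have a median of 5.66 on the left, and 6 of them and Tnfaip3 are filled on the right.

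The table gives the Rel homology domain label to 10 genes, the 5 subunits and the 5 NFAT genes, which share the domain and respond to calcium signals or, for Nfat5, to osmotic stress. Nfatc4 was at or below 0.0249 FPKM and was not tested. Nfatc1 fell with LPS from 18.4 ± 3.34 to 7.20 ± 0.553 FPKM (log2 fold change -1.23, limma adjusted p = 0.0013). Nfat5 (0.90, limma adjusted p = 0.15), Nfatc2 (-0.29, 0.35) and Nfatc3 (0.01, 0.97) did not pass the test. In LPS + G-CDs against control cells, Nfatc1 (-1.49, limma adjusted p = 0.00054) and Nfatc2 (-0.83, 0.023) were called as lower. Nfat5 (-0.13, limma adjusted p = 0.86) and Nfatc3 (-0.28, 0.38) were not called there. Of the tested relatives, 0 of 4 were called for LPS + G-CDs against LPS, with log2 fold changes from -1.03 (Nfat5) to -0.26 (Nfatc1), 2 of them (Nfat5 and Nfatc2) at an unadjusted p under 0.05, compared with 15.2% of the tested genes, and voom called 0 as well. These 4 genes have 7433 to 18378 bases in the table, and Nfat5 spread from 12.5 to 47.5 FPKM over the LPS + G-CDs libraries. With the trend on the table length removed the log2 fold changes were -0.60 for Nfat5 (limma adjusted p = 0.30), -0.27 for Nfatc2 (0.32), -0.10 for Nfatc1 (0.72) and 0.01 for Nfatc3 (0.97), and Nfat5 passed the test without LPS + G-CDs replicate 1, with the trend removed (-0.89, limma adjusted p = 0.049) or not (-1.55, 0.048).

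Across the 9 libraries, the log2 levels of the subunit genes were most alike for Nfkb1 and Nfkb2 (Pearson's r = 0.989) and for Nfkb1 and Rel (0.978), and least alike for Rel and Relb (0.664). These points share 3 groups, the same libraries and the length trend, and are a description. Among all tested genes, Nlrp3, the gene of an inflammasome sensor, was the most like Nfkb1 (0.999), followed by Slfn4 (0.999, both over 9 libraries). For Nfkb2 these were Zc3h12a, which encodes the ribonuclease Regnase-1 (0.998), and P4ha1 (0.998). For Rel they were Gm8995 (0.999) and Cflar, which encodes the apoptosis regulator c-FLIP (0.998). For Rela they were Ube2d3 (0.992) and Slc25a22 (0.991), and for Relb Hexim1 (0.994) and Gm4907 (0.986). The levels of these genes differ widely, with Nlrp3 rising from 21.6 ± 6.80 to 260 ± 0.881 FPKM with LPS and standing at 176 ± 45.8 FPKM with LPS + G-CDs.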

How the data were processed

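Poly-A mRNA of 9 RAW264.7 samples was sequenced, and the authors deposited FPKM values per gene and library with gene coordinates and lengths (GRCm38, mm10, per the submitters' processing notes). The aligner, counter and annotation are not given in the sources used here. Coordinates were the same as in GENCODE M21 for 53462 of the 54409 genes matched by ID (98.3%), which include 4 of the 5 subunit genes and not Nfkb2.

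Whole reads were recovered from FPKM times gene length, within 0.05 reads for 100% of values (14752400 to 17312255 per library). The library sizes used by the authors were 1.11 to 1.14 times these reads in the control libraries. They were 0.929 to 0.936 times in the LPS and 0.880 to 0.980 times in the LPS + G-CDs libraries. Relative to scaling on these reads, FPKM is thus lower in control and higher in treated libraries, which bears on every comparison with control. Genes with at least 1 FPKM in at least 3 of 9 libraries (11585) were fitted on log2(FPKM + 1) with limma 3.58.1 in R 4.3.3 (1 model of 3 groups, eBayes with trend, two-sided, Benjamini-Hochberg adjustment over all tested genes, threshold 0.05). Fold changes on this scale understate those of low genes. The length trend is a smooth curve of log2 level on the length in the table, fitted per library relative to the mean of all libraries. Levels per base of the coding transcript are FPKM times the length in the table over that of the longest protein-coding transcript in GENCODE M21. Python 3.11.15 with pandas 2.3.3, scipy 1.17.1 and matplotlib 3.10.9 did the rest. The fit was tested on simulated data.

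The subunit genes and the pathway lists were chosen with earlier results of these data known. The genes named were the 5 subunits, Nfkbia, Ikbkb, Chuk and Map3k14 in each comparison, the 2 largest called rises and falls of each list, and for each subunit the 2 genes most correlated with it. NFAT genes are named for their family label, and Cd40, Psd, AC114539.1, Cyld, Malt1, Bcl3, Birc2, Sirt1, Cxcl10 and Irf1 for facts about list or overlap, after their values were seen.

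Same-numbered LPS and control libraries deviated together from their group means (r = 0.103, 0.137 and 0.113, all above the limit of 0.1), so the numbers pair them by that limit, although no label says what the numbers mean. A fit with this replicate block changed no subunit call between those groups, and of the listed genes it added Chuk and Cyld.

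Alternatives were pseudocount 0.1, no filter, a minimum of 5 FPKM, scaling as TPM, by median of ratios or by quantiles, fits of only the 6 libraries compared, eBayes with no trend, voom applied to recovered reads, the replicate block, the length trend removed and each library left out. The length trend removed with the block, without each LPS + G-CDs library and on coding transcript length, and shares per coding transcript, were added after seeing the data.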

Additional observations from a re-analysis of the deposited data

How the results depend on the processing

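Of 5 subunit genes, those called ranged from 3 to 5 for LPS versus control when 1 library was left out, with 3 without LPS replicate 3, from 0 to 1 for LPS + G-CDs versus LPS, and from 4 to 5 for LPS + G-CDs versus control. The genes called among all 11585 for LPS + G-CDs versus LPS went from 57 to 25 with a pseudocount of 0.1, 37 with TPM, 25 with the 6 libraries alone, 92 with the trend on the table length removed and 125 with that on the coding transcript length, and ranged from 11 (without LPS + G-CDs replicate 2) to 256 (without LPS + G-CDs replicate 1) with 1 library left out. With the trend also removed these 2 counts were 23 and 328. For LPS + G-CDs versus control the count went from 2927 to 1789 with the 6 libraries alone and ranged from 1914 (without LPS + G-CDs replicate 2) to 3245, and for LPS versus control from 3630 to between 2478 and 4289. The log2 fold change against LPS ranged from -0.0697 to 0.0144 for Rela with 1 library left out, above 0 without LPS + G-CDs replicate 1, and from -0.0446 to 0.399 for Relb, below 0 without LPS + G-CDs replicate 3 (-0.0694 with the trend also removed). For LPS versus control, the difference in the Nfkb2 and Relb share turned to -0.556 points by reads, where the weight of gene length is what changed. It was -0.0632 points per coding transcript, a sign left unsettled by the longer transcript used for Nfkb2. With libraries left out it ranged from 5.55 to 8.29. For LPS + G-CDs versus LPS it turned to -1.80 points with the trend removed and ranged from -0.192 to 4.98. Other causes were not tested. Same-numbered LPS + G-CDs and LPS libraries correlated at 0.0950, 0.0801 and 0.143 in their deviations and LPS + G-CDs and control libraries at 0.280, 0.0575 and 0.653. Not all were above 0.1, so the numbers did not pair them by that limit, and no label says what the numbers mean. Replicate 3 of LPS + G-CDs and of control (0.653) also share the length trend, and pairing was not tested apart from it. LPS + G-CDs replicate 1 was closer to another control library (0.504). With the replicate block 5 subunit genes were called for LPS + G-CDs versus control, since Rela passed (adjusted p = 0.036), and 0 for LPS + G-CDs versus LPS. Among the listed genes this block added Malt1 (0.032) for LPS + G-CDs versus LPS, and for LPS + G-CDs versus control it added Sirt1 (0.045) and dropped Birc2 (0.053). The log2 fold change of Rel against LPS ranged from -1.10 (without LPS + G-CDs replicate 1) to -0.526 (without LPS + G-CDs replicate 3) with 1 library left out. The fewest reads behind a subunit value were 192, for Relb.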
